A study of Mus musculus with 192 samples.

Results

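Malat1, Neat1, Gas5, Snhg1, Snhg3, Snhg8 and Snhg12 are 7 long noncoding RNA genes whose 5′ ends were read in single mouse embryonic fibroblasts. They were chosen by name from 15513 RefSeq gene names with a listed peak within 10000 bp of an annotated start, together with 425 of the 553094 deposited start-site windows, each 150 bp long. A window belonged to a gene when the deposited table named that gene as nearest and gave a distance of at most 10000 bp, so starts inside the genes were kept. The assay, single-cell start-site sequencing, captures polyadenylated RNA and sequences it from the 5′ end, and a read (tag) therefore marks a possible transcription start. The cells were primary connective-tissue cells from embryos of strain C57BL/6, and each one received interferon-beta, an antiviral cytokine, at 100 U/ml for 1 h. The naive group held 96 cells. The pretreated group held 96 cells that had an earlier treatment, which the labels do not specify. No untreated cells were analysed here, so both groups carry the interferon treatment.

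Each sample is 1 cell, and the labels name no separate culture or animal. Each group therefore counts as 1 sample, no difference was tested, and no difference below has a replicate check. After cells with under 10% of the median total were left out, 92 naive and 85 pretreated cells remained. Their total tags ranged from 305066 to 3857034 (median 2305627.5) in naive cells and from 502374 to 13174313 (median 2650490) in pretreated cells. The median number of listed peaks per cell was 5231.5 and 6605. Peaks held 90.1% of naive and 84.6% of pretreated tags, and mitochondrial peaks held 1390011 tags in naive cells and were listed at 0 in pretreated cells. The part of these differences between the groups in the results below was not tested. Of 11 fibroblast markers, 10 had a listed peak on either strand, and their summed level ran from 1373 to 10310 CPM (tags per 1000000 total tags of the cell) in naive cells and from 1125 to 10640 in pretreated cells. Sparc was the highest of them, at 2961 CPM over naive and 3819 over pretreated cells, followed by Vim at 993.5 and 1590. Col1a1 was listed in 87 naive and 84 pretreated cells, but Pdgfra in 12 and 8, Dcn in 3 and 1 and Thy1 in 1 and 0. Of 21 markers of epithelial, endothelial, blood and immune, neural and skeletal muscle cells, 10 had one, and the summed level of each of these lists had a median of 0 in both groups. The most often listed of these were Cd68, in 15 naive and 5 pretreated cells, and Map2, in 1 and 12.

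These RNAs share features that make their starts worth reading. Malat1 is a nuclear RNA of the splicing speckles whose 3′ end is cut to release a small transfer-RNA-like RNA, mascRNA. Neat1 is the scaffold of nuclear paraspeckles and is made as a short polyadenylated form and a long form from the same start. Gas5, Snhg1, Snhg3, Snhg8 and Snhg12 carry small nucleolar RNAs (snoRNAs), the guides that direct chemical changes of ribosomal RNA, inside their introns. Their spliced transcripts encode no conserved protein, and host RNAs such as Gas5 and Snhg1 are classic members of the terminal oligopyrimidine class, which start in a run of C and T.

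The starts that RefSeq annotates show these features unevenly. Each sequence below is the gene's strand 5′ to 3′ in build GRCm38.p6, with 40 bases before the start in lower case and the first 20 transcribed bases in capitals. RefSeq gave 2 starts for Gas5 and had no entry in this set for Neat1.
Malat1, chr19:5802653-5802712, minus strand: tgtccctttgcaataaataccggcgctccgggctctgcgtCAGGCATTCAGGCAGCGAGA
Gas5 entry 1, chr1:161034561-161034620, plus strand: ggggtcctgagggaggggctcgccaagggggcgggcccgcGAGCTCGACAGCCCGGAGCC
Gas5 entry 2, chr1:161035126-161035185, plus strand: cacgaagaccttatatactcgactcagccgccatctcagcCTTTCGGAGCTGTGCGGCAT
Snhg1, chr19:8723447-8723506, plus strand: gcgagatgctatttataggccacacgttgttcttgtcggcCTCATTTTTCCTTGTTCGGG
Snhg3, chr4:132353667-132353726, minus strand: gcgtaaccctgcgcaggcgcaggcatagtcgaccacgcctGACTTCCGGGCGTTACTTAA
Snhg8, chr3:123508317-123508376, minus strand: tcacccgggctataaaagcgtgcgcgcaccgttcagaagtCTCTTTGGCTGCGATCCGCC
Snhg12, chr4:132308638-132308697, plus strand: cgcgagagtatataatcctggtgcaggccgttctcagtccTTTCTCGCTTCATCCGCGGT

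The letters TATA, which read the same on both strands, were searched from 40 to 16 bases before the start. They begin 27 bases before the start in Snhg1, 30 in Snhg8, 32 in Snhg12 and 29 in the second Gas5 entry. They are not in that window of Malat1, Snhg3 or the first Gas5 entry. Of 32851 RefSeq promoters, 5.91% hold them there. The longest run of C or T on the gene's strand, from 10 bases before to 15 after the start, is 9 bases in Snhg1 and Snhg12, 7 in Snhg8, 6 in the second Gas5 entry and 5 in Snhg3. It is 4 bases in Malat1 and 3 in the first Gas5 entry, and 15.2% of all promoters have a run of at least 7. The measure does not ask that the run cover the start. In Snhg1 and Snhg3 the longest run lies inside the transcribed bases and not at the first one. The tags were placed on build mm9, so these starts were not matched to single peaks.

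By windows named for each gene, Malat1 was by far the most abundant of the 7 RNAs. Levels are tags on the gene's strand per 1000000 total tags (CPM). Malat1 ranked first of 12701 genes with sense tags in naive cells and first of 13137 in pretreated cells. Neat1 ranked 731 in both groups, Snhg8 1555 and 3125, Gas5 2665 and 2668, Snhg3 4723 and 5035, Snhg1 6213 and 8814, and Snhg12 9903 and 11262. These ranks leave out windows inside a gene that are named for another. With those, Snhg1 stood at 100.8 CPM in naive and 26.1 in pretreated cells. Together the 7 genes took 1.55% of all naive tags and 1.24% of all pretreated tags. Malat1 alone supplied 98.1% of that sum in naive and 97.8% in pretreated cells, and the other 6 genes together had 60877 and 78458 tags. In sums over many cells, fewer cells with an RNA and less RNA per cell cannot be told apart, so the per-cell values are given first.

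**Figure D1:**
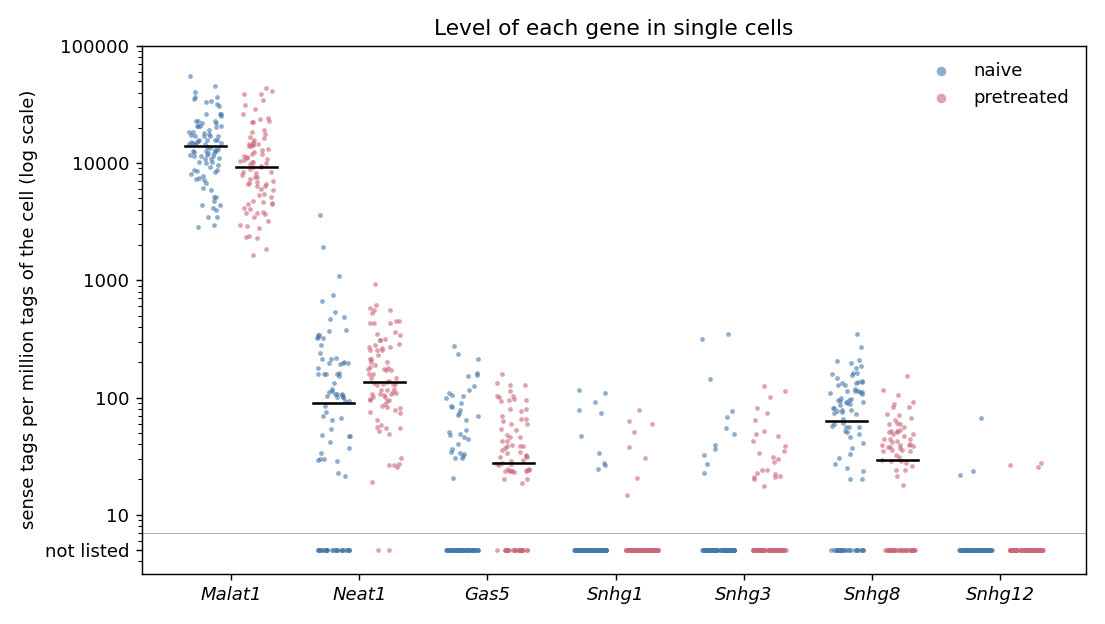
Each point is 1 cell, its height the CPM of sense tags of the gene (log scale), with the median of all kept cells as a black line where it is above 0; cells with no listed peak lie at the bottom. Malat1 is listed in all 92 naive and 85 pretreated cells, while Snhg12 is listed in 3 of each.

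Malat1 varied widely from cell to cell in both groups. Naive cells ran from 2869 to 55130 CPM with a median of 14110. Pretreated cells ran from 1630 to 43440 with a median of 9294. The ranges overlapped over most of their length, and the middle 50% of cells lay between 9179 and 20310 in naive and between 5100 and 14570 in pretreated cells. The summed levels were 15200 and 12110 CPM (3091240 and 3473520 tags), and the log2 ratio was pretreated over naive of -0.33 (95% counting interval -0.330 to -0.326). Over all alternative settings the ratio stayed below 0, from -0.64 to -0.20. The coefficient of variation of Malat1 was 0.623 in naive and 0.801 in pretreated cells. Of the 96 genes listed in every kept cell, 81 in naive and 92 in pretreated cells had a lower one, and the medians were 0.502 and 0.416.

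Nearly all Malat1 tags came from 1 place. The window chr19:5802597-5802746 (mm9), annotated as the promoter of NR_002847 and 1 bp from its start, held 3089835 naive and 3472373 pretreated tags. The listed peak began at the same base in 92 of 92 naive cells and in 84 of 85 pretreated cells. The share of Malat1 tags within 100 bp of the annotated start was 99.95% in naive (exact binomial interval 99.95% to 99.96%) and 99.97% in pretreated cells. The focus ratio, the deposited fraction of tags that lie close to the main position of a peak, had a median of 0.931 and 0.914 for Malat1. Every other window named for Malat1 was listed in at most 1 cell of each group. One of them, 523 bp inside the gene, had 763 tags in 1 naive cell and was listed at 0 in pretreated cells.

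Windows near the 3′ end of Malat1 are named for mascRNA in the table and are not counted above. They held 8563 tags in 34 naive cells and 13570 tags in 44 pretreated cells. The leading one lies 6692 bp from the Malat1 start, in a gene of 6983 bp, with 6202 tags in 22 naive and 5899 tags in 16 pretreated cells. Adding them left the log2 ratio of Malat1 at -0.33.

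Neat1, which ranks far below Malat1, was listed in more pretreated cells. Naive cells ran from 0 to 3588 CPM with a median of 88.96, and pretreated cells from 0 to 931.8 with a median of 135.1. The 3 highest cells were naive ones, but the groups otherwise covered the same range. Neat1 had a listed peak in 64 of 92 naive cells (69.6%, interval 59.1% to 78.7%) and in 83 of 85 pretreated cells (97.6%, 91.8% to 99.7%). These intervals take cells as independent draws and leave out any spread between cultures or animals. That they do not overlap is therefore no test of a difference between the groups. The naive cells without a listed Neat1 peak had a median of 2920310 total tags and those with one 2130847.5. The part of depth was not tested. After each cell was thinned to 1122993 tags, which left out 16 naive and 2 pretreated cells, the shares were 67.1% and 97.6%, although peaks were not called again at that depth. Cells with Neat1 listed held at least 21.37 CPM of it in naive and 19.19 in pretreated cells. Thinning could therefore hardly remove a listing, and it does not check the part of depth. A difference of 20 points or more toward pretreated cells was common: it was found in 43.5% of the 2580 genes that passed the filter on level, and in 48.3% in either direction.

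The summed level of Neat1 was nearly the same in both groups. It was 174.1 CPM in naive cells (35398 tags) and 188.9 in pretreated cells (54183 tags), and the log2 ratio was 0.12 (counting interval 0.10 to 0.14). A single naive cell supplied 17.4% of the naive tags, and without the highest cell of each group the ratio was 0.32. The sign turned with the scaling, to -0.19 when sums were scaled by the median of ratios over genes, and in even-numbered cells it was -0.07.

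Tags of Neat1 were spread along the gene and few lay at its annotated start. The start window, chr19:5845404-5845553 (mm9, promoter of NR_131212, distance 0), had 427 tags in 5 naive cells and 1235 tags in 12 pretreated cells. Within 100 bp of the start lay 1.91% of naive tags (interval 1.77% to 2.06%) and 4.85% of pretreated tags (4.67% to 5.04%). Over the genes tested, the median share within 100 bp was 88.98% and 92.39%. More than 1000 bp downstream lay 70.3% of naive and 79.8% of pretreated Neat1 tags. Tags were found in 113 windows in naive and 191 in pretreated cells, of which 93 and 140 were listed in 1 cell only. Cells with Neat1 had on average 2.20 listed peaks of it in naive and 3.43 in pretreated cells, against 1.02 and 1.05 for Malat1.

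**Figure D2:**
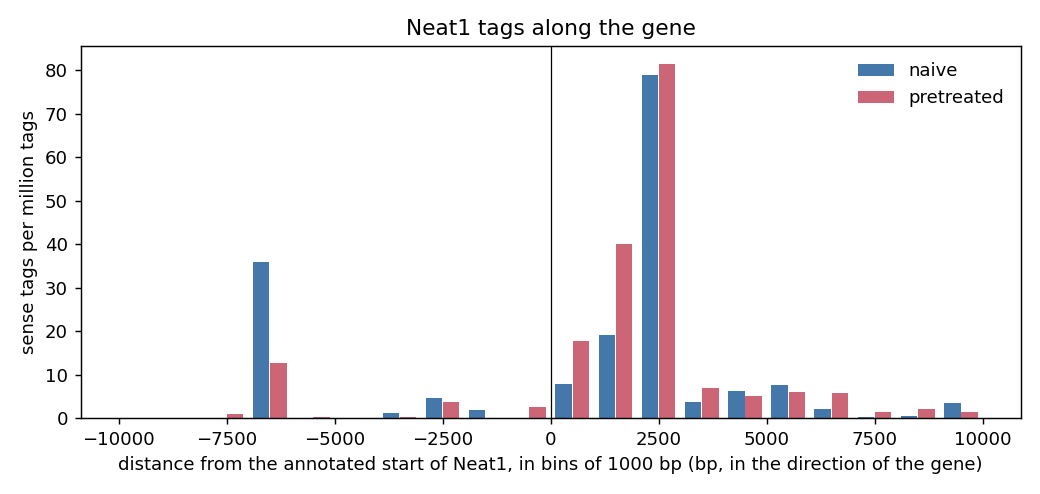
Bars are sense tags of Neat1 in CPM over the group, summed in bins of 1000 bp by distance from the annotated start (line at 0, positive in the direction of the gene), for naive and pretreated cells. The bin from 2000 to 3000 bp is highest in both groups, at 78.97 and 81.57 CPM, and the next bin downstream holds 3.78 and 7.04.

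Most Neat1 tags lay in the first part of the gene. From the start to 3000 bp lay 60.9% of naive tags, in 52 cells, and 73.8% of pretreated tags, in 81 cells. The bin from 2000 to 3000 bp alone had 16056 tags in 35 naive cells and 23394 tags in 73 pretreated cells. In the next bin, to 4000 bp, there were 768 and 2019 tags. The table annotates a window 3844 bp from the start as the end region of the shorter transcript, NR_003513. The bin from 1000 to 2000 bp held 19.2 CPM in naive and 40.1 in pretreated cells, and the bin from 0 to 1000 bp held 7.91 and 17.7. With windows within 1000 bp of the start alone, the log2 ratio of Neat1 was 1.36, but Neat1 then did not pass the filter on level described below and is not counted as past 2-fold. The single strongest window in naive cells, chr19:5843294-5843443 at 2110 bp, had 9022 tags in 3 cells, and 2065 tags in 6 pretreated cells.

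Part of what the table assigns to Neat1 lies upstream of it. Windows 6000 to 7000 bp upstream held 20.6% of naive tags, in 8 cells, and 6.73% of pretreated tags, in 11 cells. In naive cells 73.2% of these came from 1 cell, in the window chr19:5852198-5852347, which is annotated in the last exon of another transcript, NM_026169. Over all sense windows that lie within the Neat1 gene of 20773 bp, also those past 10000 bp, there were 33299 naive and 57754 pretreated tags. The log2 ratio was then 0.30, with 67 of 92 naive and 85 of 85 pretreated cells listed.

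Neat1 also had listed peaks on the opposite strand. They held 4189 tags in 31 naive cells (20.6 CPM) and 10256 tags in 43 pretreated cells (35.8 CPM). The leading window, 4725 bp from the start, had 142 tags in 3 naive cells and 4356 tags in 25 pretreated cells. The one at 3844 bp had 916 tags in 15 naive and 2593 tags in 18 pretreated cells.

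Snhg8, host of the snoRNA Snora24, was the one gene of the 7 that passed the filter on level and differed by 2-fold or more. Naive cells ran from 0 to 347.4 CPM with a median of 63.5, and pretreated cells from 0 to 152.8 with a median of 29.2. The ranges overlapped, but both the median and the highest cell were lower in the pretreated group. Summed, Snhg8 stood at 70.8 CPM in naive cells (14405 tags) and 30.1 in pretreated cells (8619 tags). The log2 ratio was -1.24 (counting interval -1.28 to -1.20), with a range over all alternative settings from -1.55 to -0.90. It missed the 2-fold line in odd-numbered cells, at -0.90, and was -1.52 in even-numbered cells.

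The background of such differences was high. The filter asked for 50 CPM in either group and a listed peak in 20% of the cells of a group, and 3 of the 7 genes passed: Malat1, Neat1 and Snhg8. Of the 2580 genes that passed it, 34.6% were past 2-fold, 22.2% higher and 12.4% lower in pretreated cells, so 1 of 3 is a share near that of all genes. The median log2 ratio of these genes was 0.31, and scaling by the median of ratios shifts every value down by that amount. Relative to it, Malat1 was at -0.64, Neat1 at -0.19 and Snhg8 at -1.55. Under that scaling 46.1% of the genes past 2-fold were higher in pretreated cells, against 64.1% without it.

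**Figure D3:**
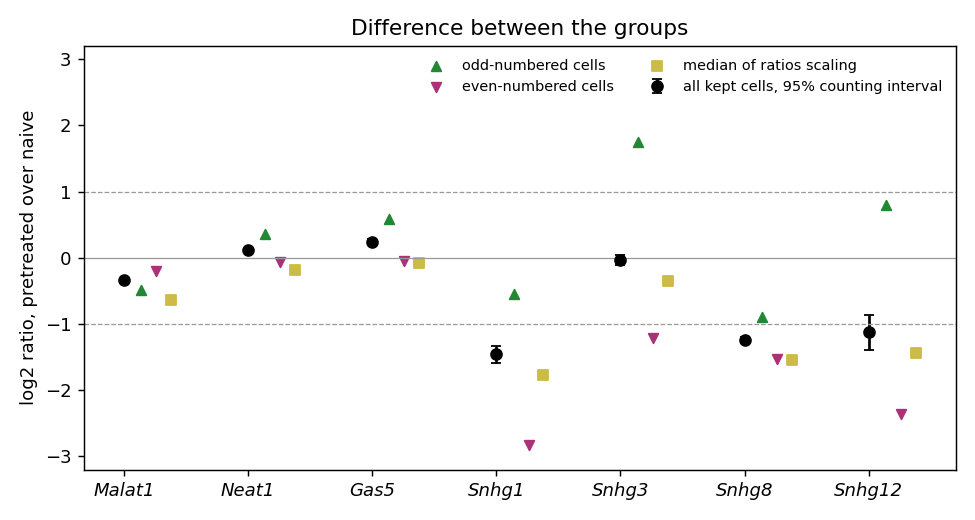
Black points are the log2 ratio of summed levels, pretreated over naive, with the 95% counting interval; the other symbols give the ratio in odd-numbered cells, in even-numbered cells and under median of ratios scaling, and dashed lines mark 2-fold. Malat1, Snhg1 and Snhg8 lie below 0 under all of them, and Snhg3 runs from -1.21 to 1.75.

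Snhg8 started at its annotated start in nearly all tags, as Malat1 did. Within 100 bp lay 97.7% of naive tags (interval 97.5% to 98.0%) and 100.0% of pretreated tags (99.96% to 100.0%). Most came from chr3:123211180-123211329 (mm9, promoter of NR_028574, distance 0). This window held 12313 tags in 58 of 65 listed naive cells and 5399 tags in 32 of 51 listed pretreated cells. Its peaks all began at the same base, but peaks 1 bp upstream have a window of their own, so this was partly fixed in advance. The window 1 bp upstream held 464 tags in 3 naive cells and 1366 tags in 11 pretreated cells. Peaks of Snhg8 had a median focus ratio of 0.966 in naive and 0.894 in pretreated cells, while over all peaks of a cell it was 0.978 and 0.947. A listed peak was found in 65 of 92 naive cells (70.7%) and 51 of 85 pretreated cells. The intervals, which take cells as independent, were 60.2% to 79.7% and 48.8% to 70.5%. Counting only cells with at least 100 CPM, the difference, pretreated minus naive, was -25.8 points.

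**Figure D4:**
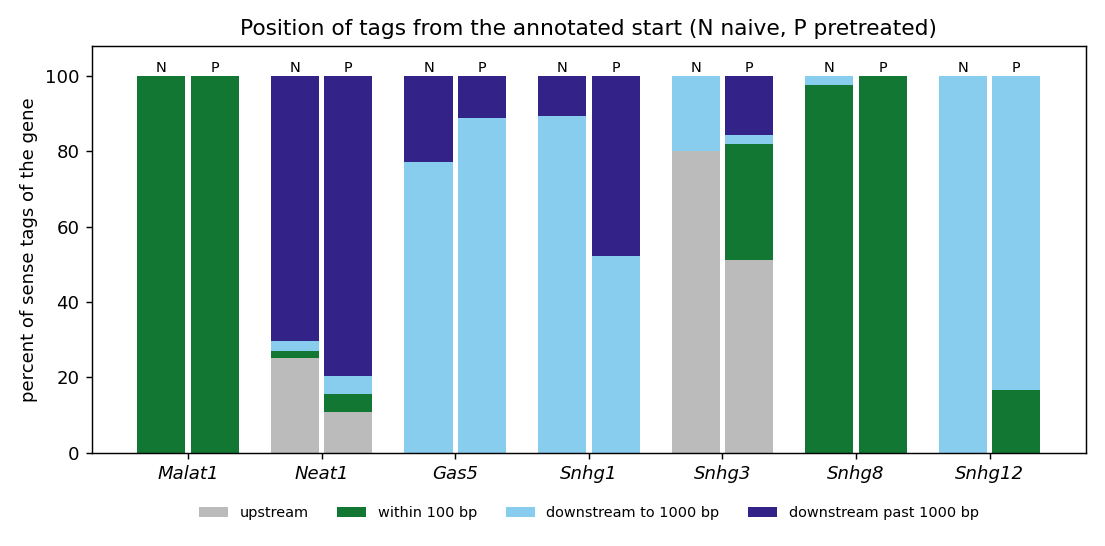
Stacked bars give the percent of each gene's sense tags that lie upstream of the annotated start, within 100 bp of it, up to 1000 bp downstream or farther downstream, in naive (N) and pretreated (P) cells. Malat1 and Snhg8 lie almost wholly within 100 bp, and Gas5 and Snhg1 have no listed tags there.

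Gas5, a host of many snoRNAs that was first found in growth-arrested cells, was listed in more pretreated cells but at a like summed level. Naive cells ran from 0 to 275.6 CPM with a median of 0, and pretreated cells from 0 to 160.2 with a median of 27.4. The highest naive cells lay above every pretreated cell, while more naive cells had no listed peak. Gas5 had a peak in 35 of 92 naive cells (38.04%, interval 28.1% to 48.8%) and 59 of 85 pretreated cells (69.4%, 58.5% to 78.9%). As for Neat1, these intervals take cells as independent and are no test of a difference between the groups. After thinning to the same depth, with no new calling, the shares were 40.8% and 69.9%, and as for Neat1 this does not check depth. The direction turned when a cell needed at least 100 CPM, at -2.54 points for pretreated minus naive. A difference of 20 points or more toward pretreated cells was found in 43.5% of genes past the filter on level, which Gas5 did not pass. Its summed level was 32.99 CPM in naive cells (6707 tags) and 38.8 in pretreated cells (11130 tags), and the log2 ratio was 0.23 (counting interval 0.19 to 0.28), which turned to -0.07 under median of ratios scaling and to -0.05 in even-numbered cells.

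The listed tags of Gas5 lay downstream of the start of NR_153812, the only Gas5 transcript from which distances were measured. The 2 RefSeq starts printed above were not placed on mm9, so whether a cluster lies at one of them was not tested. No listed Gas5 tag lay within 100 bp of the start of NR_153812, of 6707 naive and 11130 pretreated tags. With each read taken as independent, this allows shares of listed tags of up to 0.055% and 0.033%. The reads came from 43 naive and 77 pretreated peaks, so these limits are too low. Tags below the peak minimum of 20 CPM were not listed, so the share over all tags was not bounded. The listed tags lay mostly in 2 clusters downstream, whose limits were set after their values were seen. The first, from 231 to 268 bp, held 44.1% of naive tags in 18 cells and 34.4% of pretreated tags in 23 cells. The second, from 824 to 842 bp, held 12.3% of naive tags in 3 cells (3.26% of cells, interval 0.678% to 9.24%) and 46.3% of pretreated tags in 40 cells (47.1%, 36.1% to 58.2%). The intervals for shares of cells again take cells as independent and are no test of a difference between the groups.

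Both clusters span few bases, but the focus ratio varied within the second. In pretreated cells its median was 0.644 at 824 bp (20 cells) and 0.8205 at 831 bp (12 cells). At 837 bp (5 cells) and 842 bp (3 cells) it was 0.966 and 0.997. Over all peaks of a pretreated cell it was 0.947. In the first cluster, the window chr1:162965223-162965372 (mm9) at 250 bp had 2508 tags in 16 naive cells and 2604 tags in 17 pretreated cells. In the second, the window chr1:162965797-162965946 at 824 bp was listed at 0 in naive cells and had 2398 tags in 20 pretreated cells, while its neighbour at 831 bp had 826 tags in 3 naive cells. A further window at 1143 bp, in an intron, went the other way, with 1247 tags in 7 naive cells and 93 tags in 1 pretreated cell. Both clusters were listed together in 0 naive cells and in 11 pretreated cells. The table annotates the windows of both as the promoter of NR_151478, a transcript other than NR_153812, and names Gas5 as the nearest gene.

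**Figure D5:**
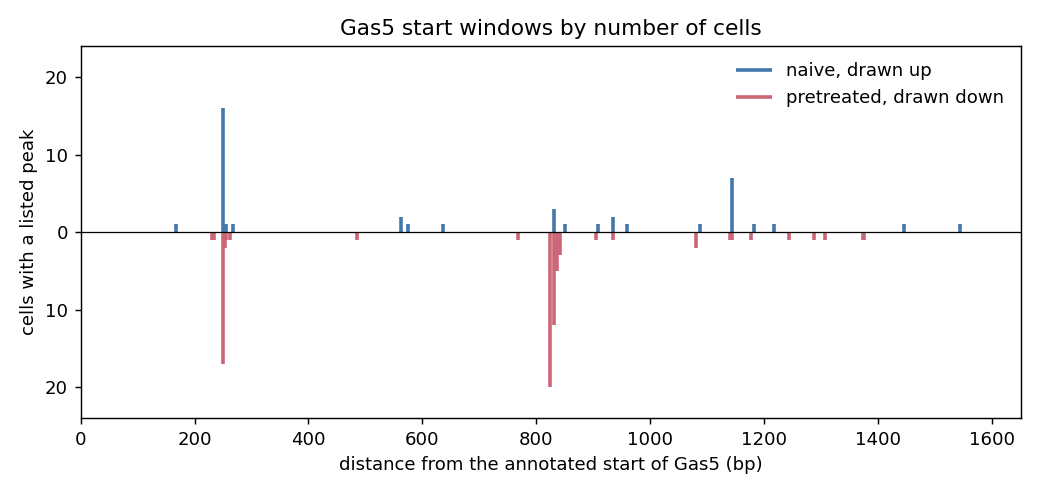
Each line is 1 start window of Gas5 at its distance from the start of NR_153812. Its length is the number of cells with a listed peak there, upward for naive and downward for pretreated cells. The window at 250 bp is listed in 16 and 17 cells, and the one at 824 bp in 0 and 20.

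Snhg1 had few tags under its own name and many in windows named for a snoRNA it hosts. Its own windows gave 7.20 CPM in naive cells (1463 tags, 10 cells, up to 114.8 CPM in 1 cell) and 2.62 in pretreated cells (752 tags, 8 cells, up to 77.7). The log2 ratio was -1.46 (counting interval -1.59 to -1.33), from -0.55 in odd-numbered to -2.83 in even-numbered cells. No listed Snhg1 tag lay within 100 bp of the start of NR_002896. With each read taken as independent, this allows shares of listed tags of up to 0.252% and 0.489%, with no bound on unlisted ones. The reads came from 10 naive and 8 pretreated peaks, so these limits are too low. Windows inside the gene that are named for Snord22 held 18850 tags in 29 naive cells and 6733 tags in 19 pretreated cells. The leading one, chr19:8800562-8800711 (mm9), lies 2659 bp from the start, near the end of a gene of 2840 bp, with 17116 tags in 18 naive cells and 5303 tags in 7 pretreated cells. With every sense window of the gene, Snhg1 stood at 100.8 and 26.1 CPM, a log2 ratio of -1.95.

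Snhg3, host of Snora73 genes, had its tags largely outside the gene. It was listed in 12 of 92 naive and 25 of 85 pretreated cells, at up to 345.4 and 124.8 CPM. The sums were 12.8 CPM (2597 tags) and 12.5 (3576 tags), and the log2 ratio was -0.03 (counting interval -0.11 to 0.04), with opposite signs in odd-numbered (1.75) and even-numbered cells (-1.21). Upstream of the start lay 80.05% of naive and 51.1% of pretreated Snhg3 tags. The leading window there, chr4:131912142-131912291 at a distance of -2615 bp, is annotated in the last exon of NM_001161797 and held 1438 tags in 5 naive and 685 tags in 5 pretreated cells. Within 100 bp of the Snhg3 start lay no naive tag and 30.8% of pretreated tags (interval 29.3% to 32.3%), from 5 cells. The interval counts reads and leaves out the spread between those cells. Over sense windows that lie within the gene, Snhg3 had 518 tags in 1 naive cell and 1748 tags in 10 pretreated cells.

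Snhg12, on the same chromosome as Snhg3, was at the edge of what was listed. It had 307 tags in 3 naive cells and 198 tags in 3 pretreated cells, or 1.51 and 0.690 CPM, a log2 ratio of -1.13 (counting interval -1.39 to -0.87). In naive cells 72.6% of the tags came from 1 cell, and without the highest cell of each group the ratio was -0.08. Within 100 bp of the start lay no naive tag and 33 pretreated tags (16.7%), from 1 cell. By the rule of a difference of 10 points, 2 genes differed in the share near the start, Snhg3 and Snhg12, and both rest on few cells. Neither passed the filter on level. Of 2572 genes that passed it, 22.9% differed by that much, and of Malat1, Neat1 and Snhg8, which passed, 0 did.

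The 5 snoRNA hosts were set beside other hosts, by lists chosen with earlier results of these data known. Of 16 other noncoding hosts, 15 had a listed peak and 6 passed the filter, with a median log2 ratio of 0.48 beside 0.31 over all genes. Of those 6, 2 were past 2-fold higher and 1 lower in pretreated cells. Beside this list and those below, 22.2% of all genes past the filter were higher and 12.4% lower. Snhg6 stood at 116.6 and 153.8 CPM, Snhg15 at 67.97 and 100.7, Snhg4 at 87.1 and 74.8, and Snhg18 at 107.6 and 48.8. Snhg18, with a log2 ratio of -1.14, was the one past 2-fold lower, and Snhg20 (2.82) and Snhg7 (1.42) were those higher. Of 26 protein-coding hosts, 19 passed, 5 past 2-fold higher and 4 lower, with a median of -0.03. Among them Hspa8, a chaperone, had a log2 ratio of -1.02, Rpl4 -3.49 and Rack1 0.67. Ribosomal protein genes have near-identical copies, so these values are uncertain. Of 13 other long noncoding RNAs, 10 had a listed peak and 3 passed, Pvt1 at 0.09, Oip5os1 at -2.72 and Mir22hg at -2.11, and Tug1 did not pass.

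The genes whose levels across cells ranked most like those of Malat1 are given as a description. Spearman's rho was computed within each group between Malat1 and 1535 genes that had a listed peak in 50% or more of each group's cells, and the genes were ordered by the mean of both values. Ifit3b came first, with rho of 0.547 over 92 naive cells and 0.211 over 85 pretreated cells, then Usp18 with 0.464 and 0.237 and Ifit1 with 0.483 and 0.200. Ifit3b and Ifit1 belong to a family that binds viral RNA, and Usp18 dampens interferon signalling; all are known to be induced by interferon. Over all 1535 genes the 95th percentile of rho with Malat1 was 0.181 in naive and 0.202 in pretreated cells, so the pretreated values of these genes lay close to it. In odd-numbered and even-numbered naive cells rho with Ifit3b was 0.617 and 0.468, and in pretreated cells -0.03 and 0.411. The points are cells that share a library each, and rho of Malat1 with the total tags of the cell was -0.185 and 0.136.

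The same ranking was made for Neat1 and Gas5, whose leading genes had a lower mean of both groups' rho than those of Malat1. For Neat1 the first were Ndufv3 (0.274 and 0.208), Ctsd (0.0905 and 0.387) and Ifit3b (0.295 and 0.150), and for Gas5 they were Rnh1 (0.207 and 0.362), Ndufb8 (0.312 and 0.240) and Gapdh (0.251 and 0.271). Over all genes compared, the 95th percentile of rho with Neat1 was 0.148 in naive and 0.168 in pretreated cells. Ctsd lay below it in naive and Ifit3b in pretreated cells. In odd-numbered and even-numbered naive cells, rho with Gas5 was -0.0445 and 0.424 for Rnh1. It was 0.190 and 0.431 for Ndufb8 and 0.0328 and 0.450 for Gapdh. Malat1 and Neat1 had rho of 0.210 with each other in naive and 0.0858 in pretreated cells. Snhg8 with Malat1 gave 0.241 and 0.0968, and Gas5 with Malat1 -0.172 and -0.143. These values are descriptions of sparse counts.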

How the data were processed

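Per the file headers, the authors called peaks in each cell with HOMER findPeaks in start-site mode, strands separate, with peaks of 150 bp and a minimum of 200 tags per 10000000, which is 20 CPM. Signal, as deposited, gives tags of a peak scaled to 10000000 tags of the cell, and the focus ratio is a deposited fraction. The submitters' processing notes list Bowtie2, HOMER and mm9. Read filters and duplicate handling are not given in the sources used here, and no molecular identifiers are mentioned, so a tag is a read and intervals cover counting error only. Windows and distances came from the deposited RefSeq table (other: base pairs to the nearest start). The 2 deposited matrices were not used here, since their 192 columns each carry no cell names.

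Tags were recovered as signal times header total divided by 10000000. All 1082504 peaks came out whole within 0.1 or within the rounding of the signal. A peak counted for a gene when it began within 2 bp of a window of the gene and lay on its strand. Cells with under 230562.75 tags (4 naive, 11 pretreated) were left out, and no cell repeated another. Sums were scaled to header totals, 0.5 tag was added for log2 ratios, and 95% intervals are exact Poisson (conditional, for ratios) or Clopper-Pearson. The limit that 0 of a total allows is the upper Clopper-Pearson bound for listed tags, and it leaves out tags below the peak minimum. It takes reads as independent although many share 1 peak, so it is too low. A gene passed the level filter with 50 CPM (tags per 1000000 total tags) in either group and a peak in 20% of the cells of a group. Shares near the start needed 100 tags in both groups. Since each sample is 1 cell, no test was run. Scaling, added tag, depth filter, strand, distance, level filter and subsets of cells were varied. All 7 genes are named. Of each list the 4 with the highest mean level are named, except 1 that is not reported here, with others only where they were called or tie to a result, and the 3 most like genes are named for Malat1, Neat1 and Gas5. The genes and lists were chosen with earlier results of these data known. The ratio and its interval were tested on simulated Poisson sums. These had no spread between cells and no repeated reads of a molecule, so the check does not cover either. Python 3.11.15, numpy 2.4.6, pandas 2.3.3 and scipy 1.17.1 were used.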

Additional observations from a re-analysis of the deposited data

Results flagged for a closer look

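Some listed peaks lay outside the tags that define the 7 genes. The flag asked for more than 3 tags, which every listed peak has. A peak needed 7 tags in the naive cell of lowest depth and 11 in the pretreated one. The flag therefore carries no weight, and these peaks are given as values whose source was not tested. On the strand opposite Neat1 there were 4189 tags in naive and 10256 in pretreated cells. Windows inside Malat1 named for Mascrna held 8563 and 13570 tags, those inside Gas5 named for Snord47 held 1061 and 967, and those inside Snhg1 named for Snord22 held 18850 and 6733.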

How the results depend on the processing

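The count of genes past 2-fold was 1 (Snhg8). It was 0 in odd-numbered cells, 3 with no filter on level (Snhg1, Snhg8 and Snhg12) and 2 with all sense windows of each gene (Snhg1 and Snhg8), a setting chosen after seeing the data. The count of genes with a share near the start that differed by 10 points was 2, and 1 in odd-numbered cells, in even-numbered cells and with both strands. With 500 bp in place of 100 bp it was 3, with Gas5 (-11.1 points) and Snhg1 (-10.2 points) joining Snhg3. The sign turned for Snhg12, whose log2 ratio was 0.79 in odd-numbered cells, and for Gas5, whose difference in the share of cells was -2.54 points when a cell needed 100 CPM. The cause was not tested. The count of genes whose share of cells differed by 20 points was 2 under every alternative run, beside 48.3% of the 2580 genes past the filter on level, which Gas5 did not pass. Thinning, among these alternatives, could hardly change the count, since peaks were not called again. At 100 CPM the count held Neat1 and Snhg8, not Gas5. Log2 ratios of Malat1, Snhg1 and Snhg8 kept their sign under all 11 alternatives, Neat1 and Gas5 under 9, Snhg12 under 10 and Snhg3 under 6. A peak needed 47 tags in the naive cell of median depth and 54 in the pretreated one, so lower levels of Snhg1, Snhg3 and Snhg12 were not listed. No paired analysis was possible because no test was run between the groups, and a number in the title of a cell only names it.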
